A study of Homo sapiens with 6 samples.

Results

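The baseline transcriptome of A549 cells was described from the 3 libraries of cells that received the nontargeting control siRNA (siCtrl), out of 6 libraries in the series. In these 3 libraries, at least 1 read fell on 26397 of the 29476 genes that the tables list. The study profiled A549 cells by RNA-seq of polyadenylated RNA after transfection of an siRNA, and its other 3 libraries, from cells with knocked-down DDX17, were not used here. The 3 control libraries shared the same line and carried the same control transfection, which the sample labels call a control plasmid and the study's methods call a nontargeting siRNA. An untransfected culture was not analysed here, so the levels are those of transfected cells. A549 is 1 established line of tumor origin, the study calls the replicates biological while the labels do not say that they were separate cultures, so the spread reported below is that between these 3 libraries and may be technical.

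A549 was derived from a human lung adenocarcinoma and has long served as a model of the alveolar type 2 cell, the cuboidal cell that makes pulmonary surfactant. The line is known to carry inactivating lesions of KEAP1, STK11 and SMARCA4 and a deletion of CDKN2A. KEAP1 normally holds the transcription factor NRF2 at a low level by marking it for degradation, and NRF2 drives genes of glutathione, thioredoxin, NADPH and carbonyl metabolism.

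The libraries held 34399256, 30658136 and 39182371 counted reads in siCtrl 1, 2 and 3. Across 29242 genes, the Pearson correlation of log2(FPKM + 1) between libraries was 0.996 for siCtrl 1 and 2, 0.996 for siCtrl 1 and 3, and 0.997 for siCtrl 2 and 3. These are correlations across genes, which are not independent replicates. The siCtrl 1 library was the highest for most genes of a stress response list, whose values are given by library further on. FPKM, the unit of all levels below unless stated, is the number of fragments mapped to a gene, scaled to its length and to the depth of the library, so it allows genes of different length to be compared. All values are means ± SD over n = 3 libraries, no test was made because only 1 group was described, and intervals and floors cover counting error only.

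Of 16877 protein-coding genes with an FPKM value, 9843 (58.3%) had a mean of at least 1 FPKM, the limit used here for an expressed gene. In the single libraries the number was 9933, 9745 and 9793, and 9584 genes reached the limit in every library. A mean of at least 10 FPKM was found for 3896 genes, at least 100 FPKM for 528 (3.13%), at least 1000 FPKM for 77 and at least 10000 FPKM for 7. The median over all 16877 genes was 1.84 FPKM, and that over the expressed genes was 6.60 FPKM. The mRNA pool was concentrated in few genes. The 10 highest genes carried 24.2% ± 1.01 of the summed protein-coding FPKM, and 65 genes carried 50 percent of it. Measured in reads, the 10 most abundant genes took 14.8%, 15.4% and 14.6% of the 3 libraries, and 212 genes took 50 percent.

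**Figure D1:**
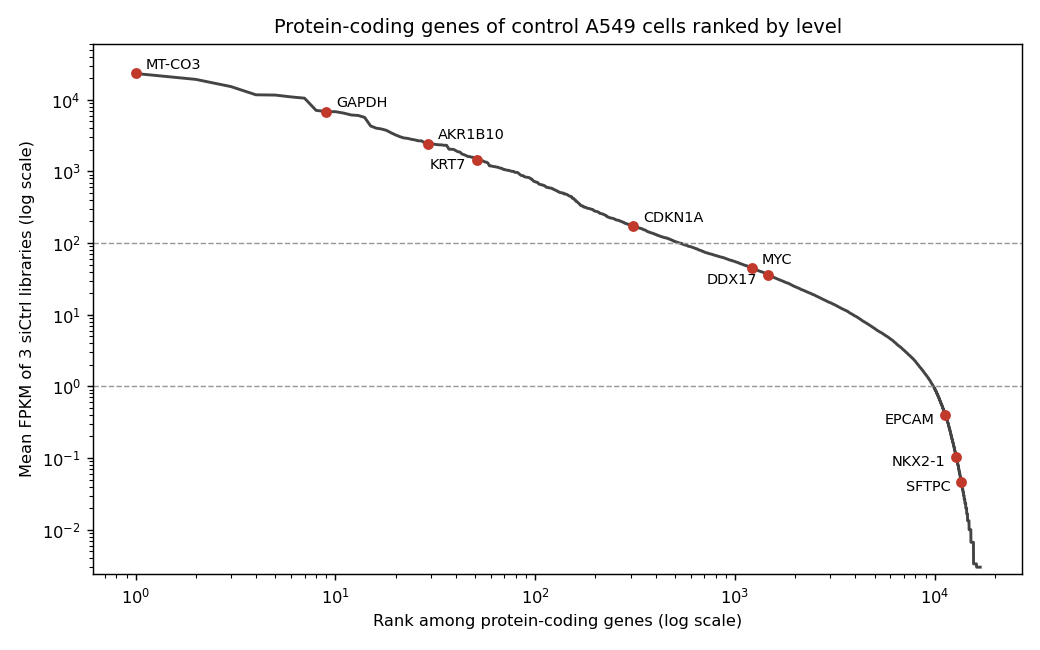
Mean FPKM of the 3 siCtrl libraries (log scale) against the rank of each of 16877 protein-coding genes (log scale). Dashed lines mark 1 and 100 FPKM, red points mark 10 genes named in the text, and genes below 0.003 FPKM are drawn at 0.003; the curve falls from 23247 FPKM for MT-CO3 to SFTPC at 0.047 FPKM and lower.

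The top of the ranking was held by genes of the mitochondrial genome. MT-CO3, MT-CO2 and MT-CO1 encode the catalytic core of cytochrome c oxidase. MT-CO3 (chrM:9207-9990) had 22801, 24420 and 22520 FPKM in siCtrl 1, 2 and 3. MT-CO2 had 19371, 20383 and 17948 FPKM. MT-CO1 had 16209, 15069 and 14489 FPKM. The ranges of these 3 genes did not overlap, so their order was the same in every library. The next 3 genes were not separated by their spread: MT-ATP8 had a mean of 11720 ± 673 FPKM, MT-ATP6 11617 ± 769 and FTL 10947 ± 591. The first pair encode subunits of ATP synthase in overlapping reading frames, so the split of reads between them is uncertain. All 13 mitochondrially encoded protein genes exceeded 100 FPKM, beside 3.13% of all protein-coding genes, 12 exceeded 1000 FPKM, and 11 were among the 25 highest genes. Below FTL came MT-ND4 with 10522 ± 935, MT-ND3 with 7104 ± 554, MT-ND1 with 6815 ± 868, MT-ND2 with 6507 ± 776 and MT-CYB with 6126 ± 462 FPKM. MT-ND4L, whose frame overlaps that of MT-ND4, had 2887 ± 498 FPKM, and these genes encode subunits of complex I, MT-CYB excepted, which belongs to complex III. Together the 13 genes took 25.8%, 24.0% and 22.6% of the protein-coding FPKM, and 11.9%, 11.1% and 10.4% of all reads. The lowest of them was MT-ND6, the only protein gene encoded on the light strand, with 802, 180 and 212 FPKM, and it was 4.27 times higher in siCtrl 1 than in the lowest library in CPM, the reads scaled to the size of each library.

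Nuclear genes among the 25 highest belonged to iron storage, glycolysis, the cytoskeleton and the ribosome. FTL and FTH1, the light and heavy chains of ferritin, stood at ranks 6 and 13. FTH1 had 5976, 6065 and 6052 FPKM in the 3 libraries. GAPDH, the glycolytic dehydrogenase that the study used as its RT–qPCR reference, ranked 9 with 6377, 6980 and 7142 FPKM. ENO1 (enolase) followed at rank 20 with 3227 ± 180 FPKM. TMSB10, which encodes a thymosin that binds actin monomers, had 5668 ± 579 FPKM. Its lowest library was siCtrl 1, at 5001 FPKM. The remaining 9 of the 25 were ribosomal protein genes, from RPS2 at 4303 ± 306 FPKM to RPSA at 2749 ± 176 FPKM, with RPL8 at 2929 ± 149 and RPL19 at 2805 ± 219 FPKM among them.

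The cytosolic ribosomal protein genes were high as a family. All 79 genes taken by symbol were expressed and 76 exceeded 100 FPKM, beside 58.3% and 3.13% of all protein-coding genes. Of the 79, 35 exceeded 1000 FPKM, and their median was 958 FPKM. They took 17.6%, 19.4% and 19.1% of the protein-coding FPKM. The 3 lowest members were RPS10 with 10.1 ± 0.85 FPKM, RPL17 with 13.1 ± 1.20 FPKM and RPL14 with 83.7 ± 6.46 FPKM. The read-through gene RPS10-NUDT3, which contains the exons of RPS10, had 924, 1038 and 1049 FPKM. The assignment of reads between RPS10 and RPS10-NUDT3 is therefore uncertain, and many ribosomal protein genes have processed copies that can share their reads. Reads that match a gene and its copy equally well are lost, because only uniquely mapped reads were kept. EEF1A1, the factor that brings aminoacyl-tRNA to the ribosome, had 1882 ± 46.3 FPKM.

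Messenger RNAs of ribosomal proteins are known to begin with a C and a run of pyrimidines, the 5′ terminal oligopyrimidine tract through which their translation is controlled. The windows around the RefSeq starts (GRCh38.p14, 25 bases) are shown for the 6 genes of highest FPKM among those with a C exactly at the start and at least 4 pyrimidines after it, and capitals mark the C and its run. The run of RPL39 goes on past the end of the printed window and is 19 bases long.
RPL13A, chr19:49487598-49487622, plus strand: aaacctcctcCTTTTCCaagcggct
RPS16, chr19:39435935-39435959, minus strand: ccctagctttCCTTTTCCggttgcg
RPL41, chr12:56116623-56116647, plus strand: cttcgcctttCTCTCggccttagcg
RPL39, chrX:119791616-119791640, minus strand: ccgccagcttCCCTCCTCTTCCTTT
RPS18, chr6:33272065-33272089, plus strand: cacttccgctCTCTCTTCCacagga
RPSA, chr3:39406710-39406734, plus strand: tgccgcctgtCTTTTCCgtgctacc
The tract was looked for at the annotated start on the transcribed strand only. Of all 35116 RefSeq windows, 4.07% held such a run. Since 63 of the 79 genes (79.7%) had an entry, under the 80% needed here, no share was read for the family. The FPKM values of the printed genes ranged from 2749 (RPSA) to 4012 (RPL13A).

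Glycolysis was represented over its whole length. Of 18 genes on the list, 17 were expressed and 11 exceeded 100 FPKM, beside 58.3% and 3.13% of all protein-coding genes. The list's median was 352 FPKM. This list, like the other gene lists below, was chosen with earlier results of these data known. PKM (pyruvate kinase) had 1701, 1750 and 1792 FPKM, and LDHA (lactate dehydrogenase A) had 1227, 1506 and 1550 FPKM. For LDHA the siCtrl 1 library lay below the other libraries. ALDOA had 830.5 ± 31.9 FPKM and TPI1 1017 ± 65.4 FPKM. Of the paralogs, HK1 stood at 42.5 ± 2.64 FPKM, whereas HK2, the hexokinase often raised in tumors, stood at 0.60 ± 0.15 FPKM. PFKP, at 137 ± 10.2 FPKM, was the most abundant of the 3 phosphofructokinase genes, above PFKM at 15.8 and PFKL at 11.7 FPKM. The glucose transporter SLC2A1 had 45.9 ± 3.83 FPKM. In CPM, 15 of the 18 genes were highest in siCtrl 3, beside 31.3% of the 11016 genes with a mean of at least 100 reads.

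Genes that are commonly used to normalize RT–qPCR differed in level by a wide margin. All 14 on the list were expressed, beside 58.3% of all protein-coding genes. They ranged from GUSB at 8.58 ± 0.53 FPKM and TBP at 8.67 ± 1.35 FPKM to ACTB at 2351 ± 70.7 FPKM and GAPDH at 6833 ± 403 FPKM. HPRT1, an enzyme of purine salvage, had 68.4, 65.4 and 66.8 FPKM. Their median coefficient of variation was 3.53%. None of the 14 was more than 1.5 times apart between libraries, which is near the 3.88% of the 11016 genes with a mean of at least 100 reads.

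NRF2 targets were expressed throughout the list. All 32 genes on the list were expressed, beside 58.3% of all protein-coding genes, 21 exceeded 100 FPKM, beside 3.13%, and the median was 282 FPKM. The list was compiled with earlier results of these data known, and it contains both ferritin genes. Among the aldo-keto reductases, which reduce carbonyl compounds, AKR1B10 had 2286, 2515 and 2535 FPKM and ranked 29. AKR1B1 had 2301, 2238 and 2404 FPKM. AKR1C3 had 769, 876 and 872 FPKM, AKR1C2 539 ± 37.0 FPKM and AKR1C1 168 ± 10.8 FPKM. AKR1C1 and AKR1C2 are nearly identical in sequence, so the division of their reads is uncertain, and AKR1C4, the hepatic member, was near the limit at 1.10 ± 0.21 FPKM.

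PGD had 1006, 1032 and 1064 FPKM, and TKT had 654, 669 and 662 FPKM, both of them enzymes of the pentose phosphate pathway. NQO1, the quinone reductase that is a classic NRF2 target, had 872, 910 and 917 FPKM. The aldehyde dehydrogenases ALDH1A1 and ALDH3A1 had 1146 ± 20.7 and 926 ± 40.3 FPKM. PRDX1 (peroxiredoxin), TXN (thioredoxin) and TXNRD1 (its reductase) stood at 1106 ± 86.5, 807 ± 61.6 and 213 ± 20.3 FPKM. The subunits of the enzyme that starts glutathione synthesis were far lower, with GCLC at 25.5 ± 3.74 FPKM and GCLM between 12.9 and 16.1 FPKM, and the cystine transporter SLC7A11 stood at 11.6 ± 2.79 FPKM. NFE2L2, which encodes NRF2 itself, had 15.7, 11.4 and 10.2 FPKM, and KEAP1 had 21.9, 24.3 and 24.5 FPKM.

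NRF2 binds the antioxidant response element, whose core letters TGACNNNGC were searched on both strands in the RefSeq windows from 250 bases before to 50 bases after each start. The 4 genes of highest FPKM with a match are shown as 25 bases of the strand that carries it, with the match in capitals, because their mean levels were at least 213 FPKM.
PGD, chr1:10398855-10398879, minus strand: cacctagaTGACATTGCcccggcga
GPX2, chr14:64942851-64942875, plus strand: ccccaggaTGACTTAGCaaaaacag
EPHX1, chr1:225825268-225825292, plus strand: agattggcTGACTTGGCaggactgt
TXNRD1, chr12:104215672-104215696, plus strand: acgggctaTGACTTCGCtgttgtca
The most upstream base of the match, counted along the gene, lay -201, -122, -78 and -99 bases from the start in PGD, GPX2, EPHX1 and TXNRD1. For PGD and GPX2, whose match is on the strand opposite to the gene, this is the last of the printed letters in capitals. TXNRD1 had further matches, not shown, at -8 bases and, from another annotated start, at -102 bases. Of all 35116 windows, 13.3% held the letters, and matches can overlap those of other basic leucine zipper motifs. Only 24 of the 32 list genes had an entry, fewer than the 80% needed, so no share was read for the list. A match is a description of these letters and not a binding site.

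Markers of the alveolar type 2 cell were for the most part near 0. Of 12 genes on the list, 3 were expressed, 7 were below 1 FPKM and 2 (SFTPA1 and SFTPA2, surfactant protein A) were not listed in the tables used here. Of all protein-coding genes with an FPKM value, 58.3% were expressed. SFTPC, the surfactant protein found in this cell type alone, had 0, 4 and 4 reads in the libraries. SFTPB had 4, 3 and 5 reads, which is 0.03 FPKM in each library. NKX2-1, the transcription factor of the lung lineage, had 0.10, 0.09 and 0.12 FPKM, and NAPSA, a protease that processes surfactant proteins, had 0.37, 0.30 and 0.38 FPKM. The expressed members were the lipid genes LPCAT1 (14.7 ± 1.26 FPKM) and ABCA3 (2.89 ± 0.21 FPKM), which act in surfactant lipid synthesis and packing, and the transcription factor ETV5 (12.1 ± 2.06 FPKM). The defining markers of the cell type for which the line is used as a model were thus at or near 0 in these libraries.

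Markers of other lung lineages were expressed in part, with 2 of 8 alveolar type 1, 3 of 7 airway, 0 of 6 squamous and basal and 2 of 6 neuroendocrine genes at 1 FPKM or more. In these lists, 5, 6, 5 and 5 members had an FPKM value. Of all protein-coding genes with an FPKM value, 58.3% were expressed. CAV1, the coat protein of caveolae, had 82.3, 74.8 and 73.3 FPKM, and EMP2 had 5.69, 7.66 and 7.86 FPKM, whereas 3 of the 8 alveolar type 1 markers (PDPN, AQP5 and CLIC5) were not listed and AGER was at 0.56 ± 0.044 FPKM. Among 7 airway genes, AGR2, a disulfide isomerase of mucus-secreting cells, had 224, 204 and 194 FPKM. MUC5B and SPDEF stood at 2.92 ± 0.24 and 2.53 ± 0.057 FPKM. The ciliated cell factor FOXJ1 had 1, 1 and 2 reads, and the club cell gene SCGB1A1 had 2, 3 and 1 reads. None of the 6 squamous and basal markers was expressed, TP63 being at 0.093 ± 0.021 FPKM. Of the neuroendocrine markers, UCHL1, a deubiquitinase, had 643, 650 and 672 FPKM and SYP (synaptophysin) had 4.45 ± 0.23 FPKM. The secretory granule protein gene CHGA had 0.66 ± 0.15 FPKM.

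Of 16 genes of the gut and liver endoderm, 10 were expressed, a share near the 58.3% of all protein-coding genes, and the median was 4.17 FPKM, beside 1.84 FPKM for all protein-coding genes and 0.20 FPKM for the alveolar type 2 list. The chains of fibrinogen, the clotting protein made by the liver, were all abundant. FGA had 105, 109 and 117 FPKM, FGB 72.6, 75.5 and 73.9 FPKM, and FGG 116, 121 and 119 FPKM. FGA and FGG overlapped in range, and FGB lay below both in every library. CPS1, which makes carbamoyl phosphate for the urea cycle, had 30.6, 28.0 and 29.5 FPKM. The transcription factors FOXA2, FOXA1 and HNF4A stood at 20.4 ± 0.56, 4.98 ± 0.49 and 3.35 ± 0.31 FPKM. ALB (serum albumin) and the intestinal factor CDX2 were below 1 FPKM in every library, and were among the 6 members with a mean below this limit.

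Of 10 epithelial genes, 8 had an FPKM value and 5 were expressed. Of 10 mesenchymal genes, all had a value and 6 were expressed. These shares were near the 58.3% of all protein-coding genes with a value. The simple keratins were high: KRT7 had 1388, 1445 and 1495 FPKM, KRT8 had 1312, 1371 and 1370 FPKM, and KRT18 had 1098, 1169 and 1225 FPKM. KRT19 was lower, at 23.9 ± 2.04 FPKM. CDH1 (E-cadherin) had 3.34, 3.19 and 2.91 FPKM. In contrast, the adhesion molecule EPCAM had 0.34, 0.48 and 0.38 FPKM, and the splicing regulator ESRP1 and the transcription factor GRHL2 had 0 reads in all 3 libraries. Among the mesenchymal genes, VIM (vimentin) had 459, 458 and 446 FPKM, and TGFBI and FN1 had 189 ± 14.8 and 50.5 ± 7.55 FPKM. CDH2 (N-cadherin) had 6.04, 4.46 and 4.79 FPKM, a mean of 5.10 ± 0.83, and lay above CDH1 in every library. The repressors ZEB1 and ZEB2 were below 1 FPKM, and SNAI1 was at 5.95 ± 0.41 FPKM.

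Markers of other cell types that could be present in a culture were close to 0. None of the 6 endothelial and none of the 8 fibroblast markers reached 1 FPKM, the highest being THY1 at 0.60 FPKM. An FPKM value was given for 5 and 7 of them, and 58.3% of all protein-coding genes with a value were expressed. Among the 8 immune markers, PTPRC (CD45) had 2, 0 and 0 reads. CD14, the lipopolysaccharide coreceptor of monocytes, was the exception with 10.3, 11.7 and 13.8 FPKM. Of 6 blood markers, only PF4, a platelet chemokine, reached 1 FPKM, at 1.02 ± 0.28 FPKM, and none did without siCtrl 2.

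**Figure D2:**
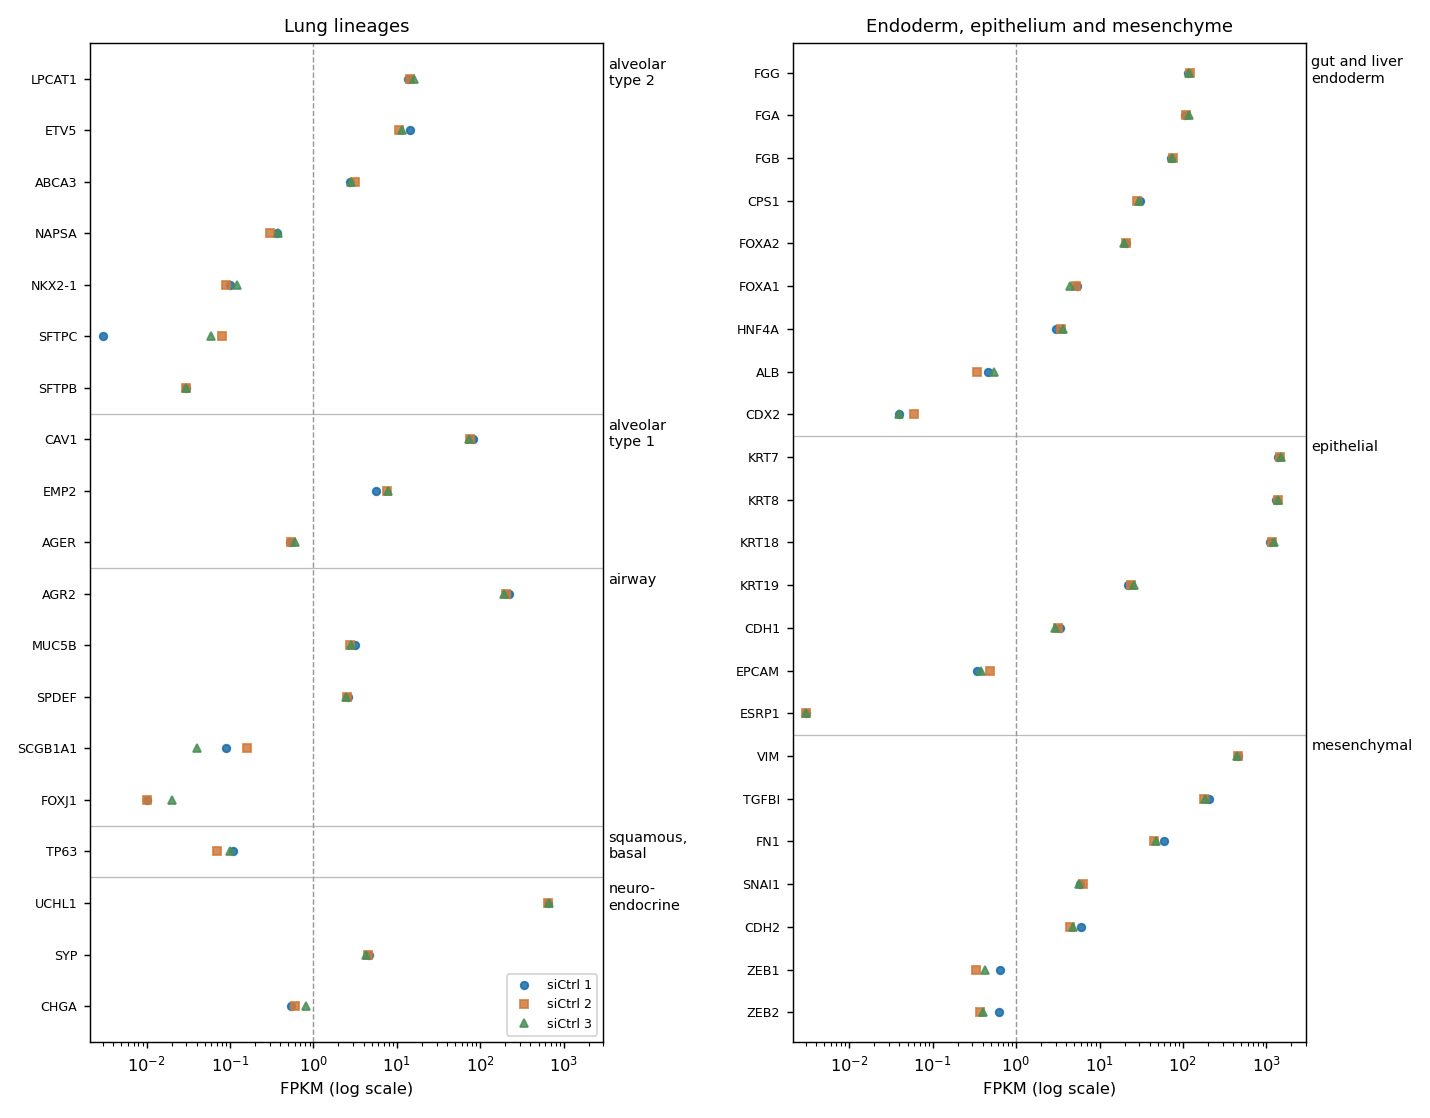
FPKM (log scale) of the lineage markers named in the text in each siCtrl library, sorted by mean within each list; the dashed line marks 1 FPKM, and values below 0.003 FPKM are drawn at 0.003. Surfactant genes, NAPSA and NKX2-1 lie at or below 0.38 FPKM in every library, whereas the keratins KRT7, KRT8 and KRT18 lie above 1000 FPKM and VIM at 446 FPKM or more.

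Oncogenes were expressed at very different levels. Of 30 on the list, 22 reached 1 FPKM, beside 58.3% of all protein-coding genes, and the median was 7.63 FPKM. CCND1, the cyclin of G1 phase, had 139, 135 and 142 FPKM, and its partner CDK4 had 103, 103 and 95.3 FPKM. MYC had 52.5, 42.4 and 39.3 FPKM, with siCtrl 1 above the others. The antiapoptotic genes MCL1 and BCL2L1 stood at 60.9 ± 3.46 and 55.7 ± 0.25 FPKM. The small GTPase genes NRAS and HRAS stood at 8.78 ± 0.56 and 56.1 ± 4.42 FPKM, and their ranges did not overlap.

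Receptor tyrosine kinases covered the range from MET and AXL down to genes with almost no reads. MET, the hepatocyte growth factor receptor, had 27.3, 22.5 and 23.2 FPKM, and AXL had 23.7, 20.4 and 22.1 FPKM, so that these overlapped. FGFR1 had 14.8 ± 0.38 FPKM, ERBB2 7.91 ± 0.275 FPKM, IGF1R 5.01 ± 0.31 FPKM and EGFR 3.97 ± 0.49 FPKM. ROS1 was at 0.18 ± 0.031 FPKM. ALK had 1, 0 and 0 reads, and RET had 0, 3 and 1 reads. Of the downstream kinases, MAP2K1 stood at 23.9 ± 0.39 FPKM, BRAF at 0.83 ± 0.064 FPKM and PIK3CA at 0.43 ± 0.038 FPKM. TERT, the catalytic subunit of telomerase, had 0.34, 0.30 and 0.47 FPKM.

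Of 30 tumour suppressor genes, 28 had an FPKM value and 23 were expressed, beside 58.3% of all protein-coding genes with a value. Their median was 2.39 FPKM beside 1.84 FPKM. CDKN1A, which encodes the CDK inhibitor p21, was the highest with 168, 168 and 183 FPKM. Of the genes with known lesions in this line, STK11 had 9.33 ± 0.50 FPKM and SMARCA4 had 1.66 ± 0.13 FPKM. SMARCA2, the alternative ATPase of the same chromatin remodelling complex, stood at 1.80 ± 0.084 FPKM, a range that overlapped with that of SMARCA4. RB1 had 2.44, 1.74 and 1.75 FPKM, and BRCA2 and ATM were below 0.5 FPKM. BRCA2, ATM, APC, FHIT and MTAP were the 5 listed members below 1 FPKM.

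CDKN2A and CDKN2B, the genes of p16 and p15, were not listed in the tables used here, which hold genes with at least 1 read in the series. Their neighborhood on chromosome 9 was examined after the values had been seen. GENCODE release 44 (GRCh38) places 25 protein-coding genes within 2 megabases on each side of CDKN2A. Of all protein-coding genes with an FPKM value, 58.3% were expressed. A run of 11 adjacent genes, from IFNA6 to ELAVL2 (chr9:21350253-23826337), was followed outward from CDKN2A to the next expressed gene or the window's end. By this construction, its members all had means below 1 FPKM or were not listed. Of these, 7 were not listed, and 5 of the 7 are interferon alpha genes, a family that other cells also keep silent without a viral stimulus. MTAP, the neighbor of CDKN2A that recycles methylthioadenosine, had 200, 205 and 239 reads and 0.46 ± 0.036 FPKM. DMRTA1 on the other side of CDKN2A had 0.85 ± 0.19 FPKM. Of the 14 genes further out in this window, 11 were also below 1 FPKM or not listed, 9 of them interferon genes that were not listed. The 3 expressed ones were KLHL9 at 3.45 ± 0.055, FOCAD at 5.02 ± 0.23 and MLLT3 at 2.84 ± 0.16 FPKM.

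**Figure D3:**
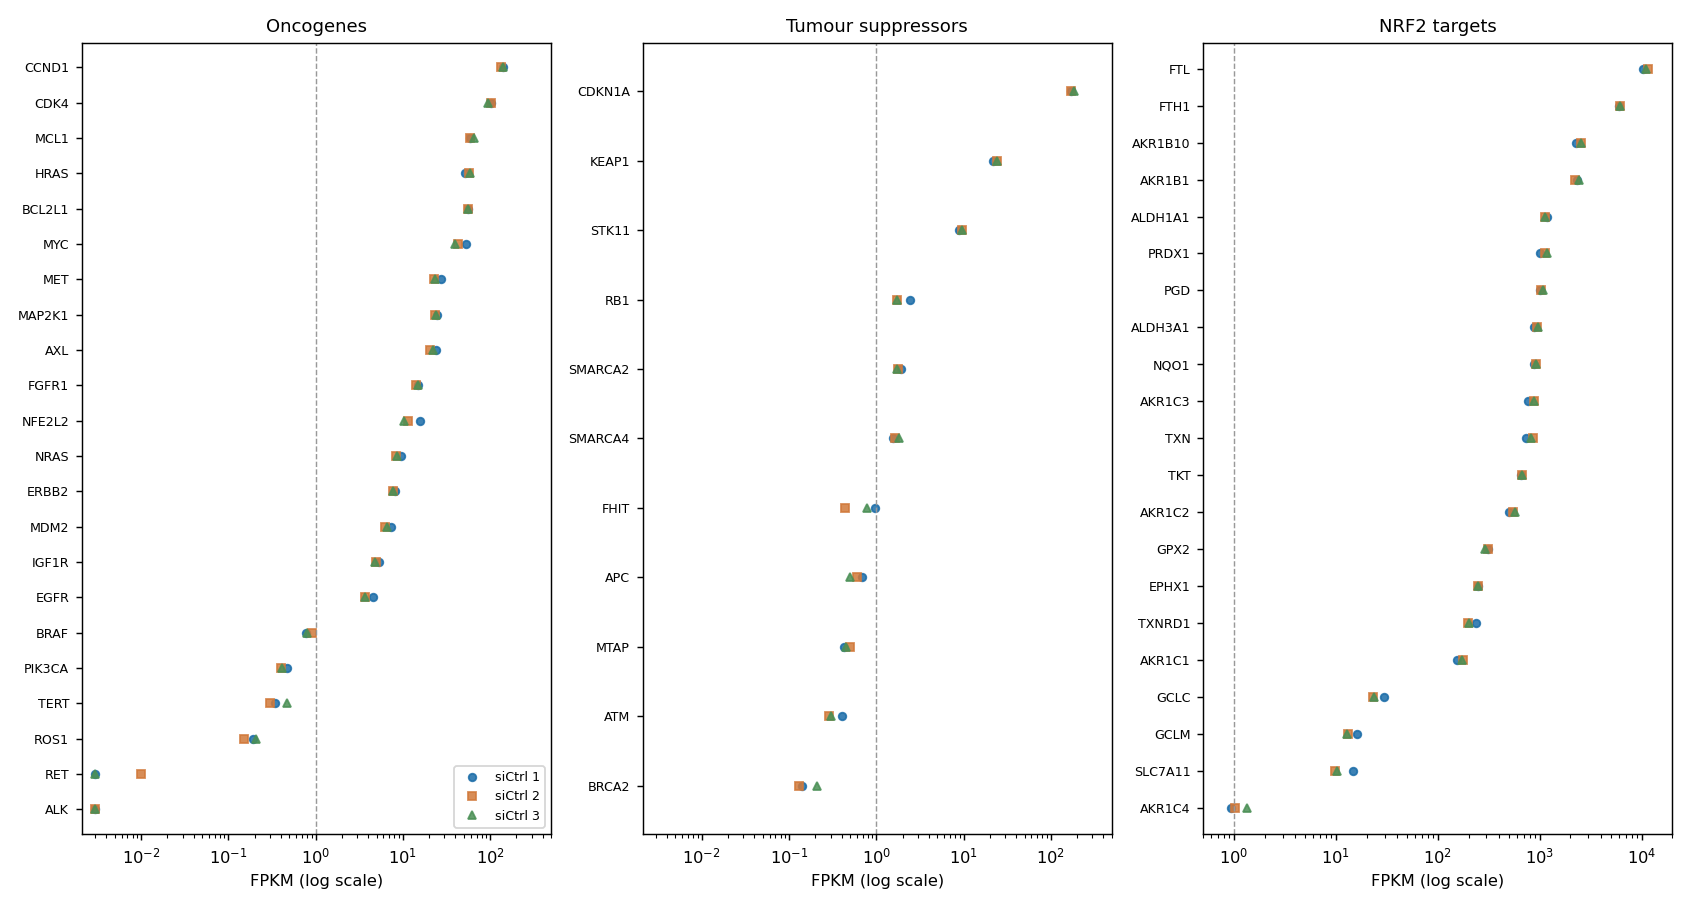
FPKM (log scale) in each siCtrl library of the oncogenes, tumour suppressors and NRF2 targets named in the text, sorted by mean; the dashed line marks 1 FPKM, and values below 0.003 FPKM are drawn at 0.003. The points of a gene lie close together beside the range between genes, and NRF2 targets extend from 1.10 FPKM for AKR1C4 to 10947 FPKM for FTL.

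Of 18 proliferation genes, 17 were expressed, beside 58.3% of all protein-coding genes, with a median of 25.9 FPKM. PCNA, the sliding clamp of DNA replication, had 136, 151 and 143 FPKM. The mitotic genes CCNB1, PLK1, AURKB and CDK1 had 63.0 ± 1.65, 49.0 ± 0.69, 46.9 ± 5.83 and 26.0 ± 0.47 FPKM, and MKI67 had 3.53 ± 0.22 FPKM. CCNE2 was below the limit at 0.83 ± 0.12 FPKM, whereas its paralog CCNE1 stood at 9.31 ± 1.02 FPKM.

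All 16 genes on a list of DNA damage response and apoptosis genes were expressed, beside 58.3% of all protein-coding genes, with a median of 12.4 FPKM. CDKN1A and BAX, an effector of mitochondrial apoptosis, led with 173 ± 8.43 and 153 ± 1.91 FPKM. GDF15, a secreted cytokine, had 126, 103 and 84.7 FPKM. MDM2, a ubiquitin ligase, had 6.72 ± 0.48 FPKM. In 3 of the genes, SESN2, GADD45A and BBC3, the libraries were more than 1.5 times apart, beside 3.88% of all genes at this depth. All 3 were highest in siCtrl 1, as were 316 of the 427 genes this far apart and 41.2% of all genes at this depth.

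Interferon response genes were low. Of 18, 17 had an FPKM value and 6 were expressed, beside 58.3% of all protein-coding genes with a value. The median was 0.59 FPKM, and IFNB1 was not listed. IFI6 had 9.65, 12.4 and 11.1 FPKM, whereas MX1 was at 0.04 FPKM in each library. Among secreted inflammatory proteins, 11 of 18 were expressed, a share near the 58.3% of all protein-coding genes. CXCL5, a neutrophil chemokine, had 28.3, 19.1 and 20.7 FPKM, and the EGF receptor ligand AREG had 35.5, 19.02 and 15.7 FPKM. CCL2 had 13.3, 13.9 and 16.2 FPKM. The cytokines IL6, IL1B and TNF stayed below 0.21 FPKM in every library.

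Of 16 surface protein genes, 14 had an FPKM value and 6 were expressed, beside 58.3% of all protein-coding genes with a value. Among them, ITGB1 (integrin beta 1) had 257, 227 and 222 FPKM, CD44 37.4 ± 2.08 FPKM, and the ectonucleotidase NT5E 14.2 ± 0.68 FPKM. CEACAM6 had 10.4 ± 0.705 FPKM, whereas its paralog CEACAM5 had 0, 2 and 5 reads. CD274 (PD-L1) was at 0.15 ± 0.021 FPKM. TMPRSS2, a serine protease, had 0 reads in all 3 libraries. Of 12 antigen presentation genes, 10 had an FPKM value and 7 were expressed, beside the same share. B2M, the light chain of class I molecules, had 95.9 ± 2.84 FPKM. Reads can be lost or shared among the polymorphic HLA genes, so their levels are uncertain. Class II genes were at or near 0, HLA-DRB1 having 1, 1 and 2 reads. Of 13 cancer-testis and oncofetal genes, 10 had an FPKM value and 6 were expressed, a share near the 58.3% of all protein-coding genes with a value. They were led by PRAME at 26.8 ± 4.48, IGF2BP1 at 12.6 ± 0.75 and HMGA2 at 11.5 ± 0.69 FPKM.

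Classes of genes, as the GeneType column of the tables defines them, differed in size and abundance. Protein-coding genes took 96.6%, 95.9% and 96.3% of the reads. The 2 mitochondrial ribosomal RNAs came next, of which MT-RNR2 had 11251, 15430 and 13746 FPKM and MT-RNR1 had 2534, 3249 and 2782 FPKM. Both were lowest in siCtrl 1 and highest in siCtrl 2. The 7635 long noncoding genes took 0.852%, 0.814% and 0.802% of the reads, and 586 of them reached 1 FPKM. In this group, 211 of 3403 lincRNA genes with an FPKM value (6.20%) and 241 of 3133 antisense genes (7.69%) reached the limit, beside 58.3% of protein-coding genes. The selection of polyadenylated RNA disfavors RNAs without a tail.

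Of 10 well-known long noncoding RNAs on the list, 8 reached 1 FPKM, beside 586 of all 7635 long noncoding genes. LRRC75A-AS1 had 404, 383 and 371 FPKM and SNHG5 had 233, 240 and 246 FPKM, the highest of the processed transcripts. GAS5 had 130 ± 9.09 FPKM and SNHG1 had 80.1, 52.3 and 42.7 FPKM, the latter being 1.84 times apart in CPM. SNHG8 and SNHG19 led the lincRNAs at 99.6 ± 12.5 and 87.7 ± 10.6 FPKM. Of the antisense class, RP4-614O4.11 had 167, 167 and 167 FPKM and ZFAS1 had 122 ± 3.92 FPKM. MALAT1, a nuclear RNA, was at 4.35 ± 0.50 FPKM in the larger of its rows. NEAT1, the scaffold of paraspeckles, was at 2.57 ± 0.48 FPKM. HOTAIR had 0 reads. In the smaller classes, the highest sense-overlapping genes were RP4-785G19.5 at 81.4 ± 1.63 and RP11-552M11.4 at 40.7 ± 0.52 FPKM. The highest sense-intronic gene had 16.9 ± 1.09 FPKM, followed by LL22NC03-N14H11.1 at 13.2 ± 0.48 FPKM. Of the genes marked as to be experimentally tested, CTD-2349P21.7 had 52.9, 91.2 and 91.8 FPKM and HEIH had 19.6 ± 3.75 FPKM.

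Beside 58.3% of protein-coding genes with an FPKM value, 193 of 3143 pseudogenes reached 1 FPKM. The highest was MTATP6P1 (chr1:633696-634376), with 2744, 2539 and 2459 FPKM, a nuclear copy of mitochondrial sequence that may share reads with its source. UBE2Q2P6 had 508 ± 26.9 FPKM, and RPS2P5, a copy of RPS2, had 193 ± 7.37 FPKM. RP5-857K21.6 had 105 ± 10.01, FTH1P10 31.2 ± 3.44, RPL13AP25 19.99 ± 1.57 and HSD17B7P2 9.79 ± 1.28 FPKM. Beside the same 58.3% of protein-coding genes, 103 of 1037 small noncoding genes reached 1 FPKM. They took 0.0151%, 0.0193% and 0.0142% of the reads, and RN7SL1, an RNA of the signal recognition particle, had 125 ± 30.7 FPKM. The row named Metazoa_SRP, a related repeat, had 72.9 ± 24.3 FPKM, and RN7SL2, which the tables class as a miRNA, had 76.6 ± 24.6 FPKM. The highest snoRNA genes were SNORD104 at 17.1 ± 1.72 and SNORD3A at 14.03 ± 6.18 FPKM, and the highest snRNA genes, RNU6-8 and RNU4-2, were at 6.04 ± 0.74 and 6.04 ± 2.32 FPKM.

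No read in any of the 3 libraries was found for 723 of the 17070 protein-coding genes in the count table (4.24%). That table holds only genes with at least 1 read in the whole series, so genes with no read in any library of the series are missing from this share. Fewer than 10 reads over the 3 libraries were found for 3129 genes. At least 1 read in each library was found for 14464 genes. A count of 0 in all libraries allows a level of up to 0.0288 CPM over the pooled reads, and a count of 0 in a single library allows up to 0.0872, 0.0979 and 0.0766 CPM in siCtrl 1, 2 and 3. Olfactory receptor genes were near 0, since none of the 23 listed reached 1 FPKM and the highest, OR1F1, stood at 0.21 FPKM. Of 59 genes with a HIST symbol, 19 reached 1 FPKM, the highest being HIST1H2BK at 48.2 FPKM. Of all protein-coding genes with an FPKM value, 58.3% reached this limit. Many histone mRNAs lack a poly(A) tail, and the selection of polyadenylated RNA disfavors these.

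The libraries agreed closely for most genes. The common biological coefficient of variation from edgeR, a measure of how much a gene's level differed from library to library once counting error is set aside, was 0.0964 over 14500 genes. Among 11016 genes with a mean of at least 100 reads, the highest library exceeded the lowest by a median of 1.14 times, and 427 genes (3.88%) were more than 1.5 times apart on TMM-scaled CPM. A ratio of more than 2 was found for 74 genes. The median coefficient of variation was 8.32% for genes with 100 to 1000 reads, beside 5.08% that counting alone would give, and 5.45% beside 2.20% for genes with 1000 to 10000 reads.

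The siCtrl 1 library was the highest in most of these genes. It led in 316 of the 427 genes, siCtrl 2 in 47 and siCtrl 3 in 64. The lowest library of the 427 was siCtrl 1 in 82, siCtrl 2 in 89 and siCtrl 3 in 256. Over all 11016 genes, whatever their spread, siCtrl 1 was the highest in 41.2%, siCtrl 2 in 27.5% and siCtrl 3 in 31.3%. In 119 genes it was more than 1.5 times above both others, beside 4 such genes for siCtrl 2 and 7 for siCtrl 3. Without siCtrl 1, 52 genes were more than 1.5 times apart and the coefficient was 0.0525. Without siCtrl 2 these values were 356 genes and 0.120, and without siCtrl 3 they were 208 genes and 0.101. The libraries also differed slightly with gene length, as implied by the ratio of reads to FPKM. In the expressed genes split into 4 sets by length, the shortest set had a median log2 deviation from the mean of the libraries of -0.06, 0.04 and 0.02 in siCtrl 1, 2 and 3, and in the longest set it was 0.05, -0.04 and -0.01. The part of length in the spread was not tested.

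**Figure D4:**
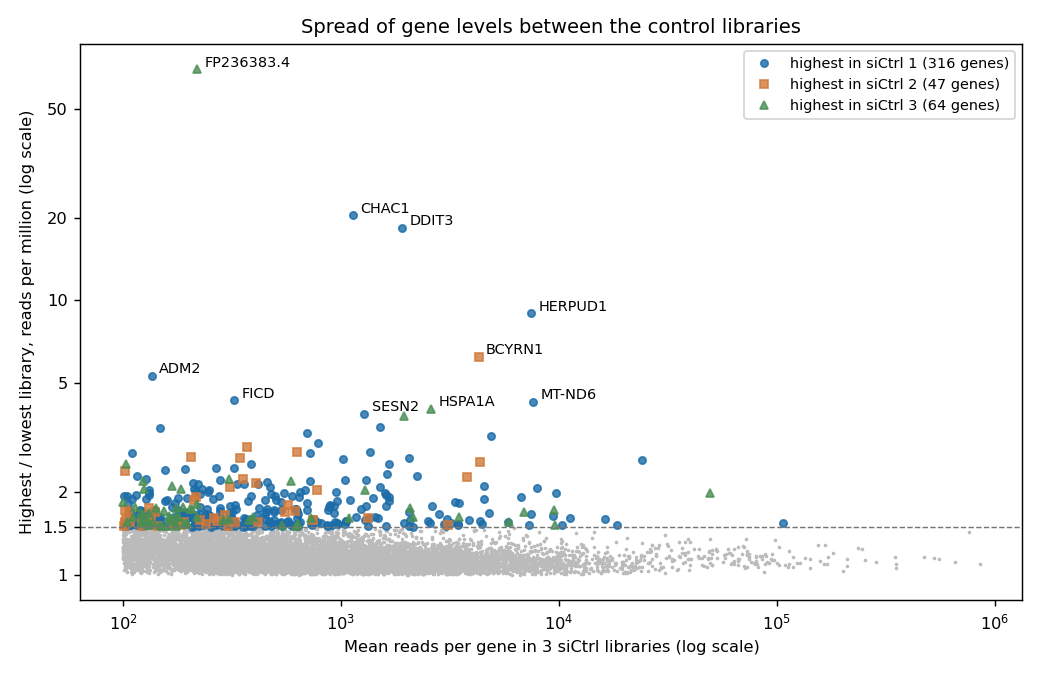
Ratio of the highest to the lowest siCtrl library in TMM-scaled CPM (log scale) against the mean reads of a gene (log scale), for 11016 genes with a mean of at least 100 reads. Genes past the dashed line at 1.5 are colored by their highest library, which is siCtrl 1 in 316 of 427 genes, and the 10 widest are named.

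Several of the 10 genes with the widest spread are known stress response genes. CHAC1, an enzyme that degrades glutathione, had 32.7, 12.7 and 1.57 FPKM, a ratio of 20.4 in CPM. DDIT3, which encodes the stress transcription factor CHOP, had 98.1, 33.9 and 5.21 FPKM, a ratio of 18.4. HERPUD1, of the degradation pathway of the endoplasmic reticulum, had 150.5, 46.9 and 16.4 FPKM. In these 3 genes, siCtrl 1 was the highest library and siCtrl 3 the lowest. ADM2, FICD and SESN2 had the same highest and lowest libraries, with ratios of 5.32, 4.34 and 3.87. FICD encodes an enzyme that modifies the chaperone BiP.

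Other genes among the 10 widest followed other orders. HSPA1A, an inducible cytosolic heat shock chaperone, had 11.6, 25.9 and 46.0 FPKM and was highest in siCtrl 3. It has a near-identical copy, HSPA1B, so its reads are uncertain. BCYRN1, named for a short noncoding RNA that resembles Alu repeats, had 1059, 5603 and 6201 reads and was lowest in siCtrl 1. In that library it had 2.17 FPKM, whereas RN7SL1 had 1242 reads and 114.78 FPKM. The ratio of reads to FPKM implies that the feature counted as BCYRN1 was far longer than its annotated location (chr2:47335315-47335514). Its reads can therefore not be assigned to the short RNA. The widest ratio of all, 69.5, was that of FP236383.4, which the tables class as a miRNA and which had 15, 7 and 635 reads.

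Of the 18 genes on the stress response list, 11 were more than 1.5 times apart, beside 3.88% of all genes at this depth, and 15 were highest in siCtrl 1, beside 41.2% of all genes at this depth. The list was chosen with earlier results of these data known. ATF4, the transcription factor of the integrated stress response, had 226, 173 and 138 FPKM. HSPA5, the chaperone BiP, had 282, 126 and 105 FPKM. TRIB3, a pseudokinase, had 80.3, 36.6 and 24.5 FPKM. XBP1 had 88.9, 55.9 and 41.2 FPKM. In these genes siCtrl 1 was the highest and siCtrl 3 the lowest. For MTHFD2, with 61.2, 31.5 and 31.1 FPKM, siCtrl 2 and 3 were nearly equal. The serine synthesis gene PHGDH (36.3, 37.5 and 43.4 FPKM) and asparagine synthetase ASNS (83.6, 87.9 and 109 FPKM) were instead highest in siCtrl 3.

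**Figure D5:**
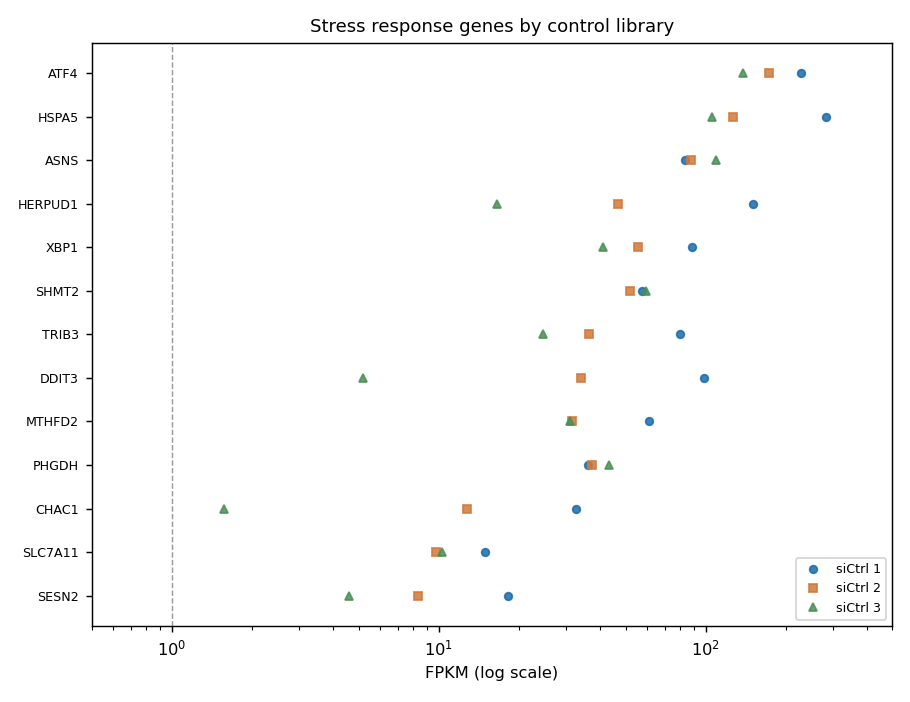
FPKM (log scale) of the stress response genes named in the text in each siCtrl library, sorted by mean; the dashed line marks 1 FPKM. For DDIT3 and CHAC1 the points span from 98.1 to 5.21 FPKM and from 32.7 to 1.57 FPKM, whereas for SHMT2 they lie between 52.1 and 59.5 FPKM.

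DDX17, the RNA helicase that the study goes on to deplete, had 34.5, 34.4 and 39.4 FPKM in these control cells and ranked 1465 among the protein-coding genes. Its paralog DDX5 had 129, 133 and 139 FPKM and ranked 396. The ranges of the paralogs did not overlap.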

How the data were processed

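The authors prepared stranded libraries from polyadenylated RNA (Kapa kit), sequenced them as paired reads, mapped the reads to GRCh38 with TopHat2 allowing up to 4 mismatches, and kept the uniquely mapped reads. They deposited a table of raw counts of reads per gene and a table of FPKM values rounded to 2 decimals. The counting program, the annotation version and the use of strand are not given in the sources used here, which leaves the assignment of reads open where genes overlap, lie antisense to each other or are nearly identical. The count table lists 29476 genes with at least 1 read in the series, and 234 of them, with 223 reads in the siCtrl libraries, have no FPKM.

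Only the 3 siCtrl columns were used, grouped by the sample labels. Depth was 30658136 to 39182371 reads per library. Levels are the deposited FPKM as mean and SD, and 1 FPKM was set as the limit of expression. Where several rows carry a symbol, that with the most reads was used. TMM-scaled CPM were computed with edgeR 4.0.16 (R 4.3.3), as was the common dispersion with an intercept only, which was tested on simulated data. Spread was counted over genes with a mean of at least 100 reads. Replicates were compared with a chi-square per gene, which was 21.0, 26.0 and 5.96 for the pairs siCtrl 1 and 2, 1 and 3, and 2 and 3, so no pair agreed within sampling noise and each library was counted as 1 sample.

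The genes named were the 25 highest protein-coding genes, members of the 26 lists (the highest, the lowest and those with a known lesion or role), the 2 highest of each GeneType with at least 100 genes (1 of them given by its level only), the 10 with the widest spread, DDX17 and DDX5, and ribosomal, mitochondrial and histone families. Some list members are counted but not reported here by name. The members and lists were chosen with earlier results of these data known. Genes outside this rule (RPS10-NUDT3, EEF1A1, the neighbors of CDKN2A, olfactory receptors, keratins and HOX genes) were chosen after their values were seen. Locations are from GENCODE release 44, matched by identifier for 97.2% of the genes, and sequences are from RefSeq (GRCh38.p14). Alternatives were other FPKM limits, TPM, TMM library sizes, RLE scaling, other low-count limits, and each library left out. Python 3.11.15, numpy 2.4.6, pandas 2.3.3 and matplotlib 3.10.9 were used.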

Additional observations from a re-analysis of the deposited data

How the results depend on the processing

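No paired analysis was possible because only the siCtrl group was described and no value comes from a test. Of 184 alternative values, 162 stayed within 1.5 times the count, or within the SD between libraries, of the value reported, and 22 moved. The number of expressed protein-coding genes, 9843, ranged from 8254 at a limit of 2 FPKM to 10975 at 0.5 FPKM. Protein-coding genes of the count table with no read numbered 723, but 3129 had fewer than 10 reads. With each library left out, 1052 to 1157 had none, by construction since fewer reads enter. The protein-coding share of reads, 96.3%, was 94.8% of the FPKM and 98.5% without mitochondrially encoded genes. The share of the 10 highest genes, 14.9% of reads, was 24.2% of the protein-coding FPKM and 9.17% of reads without mitochondrially encoded genes, and 14 of the 25 highest genes were kept when the mitochondrial genes were removed. The coefficient of variation of 0.0964 ranged from 0.0525 to 0.120 over the libraries left out, the lowest without siCtrl 1. The median correlation of 0.996 was 0.989 with a pseudocount of 0.1 and 0.995 on log2 CPM, and 0.996 to 0.997 with each library left out. The 427 genes more than 1.5 times apart became 2371 at a mean of at least 10 reads, 74 at a limit of 2 times, and 52 to 356 with each library left out. For the single lists, 6 of 130 alternative counts moved by more than 1.5 times, in 5 lists, among them the tumour suppressors, of which 15 rather than 23 reached 2 FPKM. Depth limits the genes below about 10 reads, the FPKM are rounded to 2 decimals, and 3 libraries of 1 group give no test.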

Other observations

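Members of the keratin and HOX families, chosen after their values were seen, gave values that belong to no comparison above. Of 37 keratin genes with an FPKM value, 9 reached 1 FPKM, beside 58.3% of all protein-coding genes, and 4 exceeded 1000 FPKM. Beside the simple keratins KRT7, KRT8 and KRT18, the fourth was KRT81, a keratin of the hair shaft, with 2114, 2345 and 2651 FPKM, which placed it at rank 32. Its neighbors on chromosome 12, KRT86 and the pseudogene KRT87P, had 67.2 ± 5.86 and 68.3 ± 29.5 FPKM. KRT87P had 40.2, 99.0 and 65.8 FPKM and was highest in siCtrl 2, whereas KRT81 was highest in siCtrl 3. These genes are similar in sequence, so the division of reads among them is uncertain.

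Of 36 HOX genes, which set position along the body axis, 19 reached 1 FPKM, a share near the 58.3% of all protein-coding genes. The highest were HOXB7 at 12.7 ± 0.95, HOXB8 at 6.08 ± 0.36, HOXC9 at 5.87 ± 0.62 and HOXB9 at 4.91 ± 2.27 FPKM. HOXB9 had 7.52, 3.82 and 3.38 FPKM and was highest in siCtrl 1. HOXC13 stood at 4.67 ± 0.24 FPKM. In the HOXD cluster, HOXD8 reached 1.04 ± 0.12 FPKM, while HOXD10 and HOXD13 were both at 0.07 FPKM.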
